A study of Mus musculus with 15 samples.

Results

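The nuclear genes of oxidative phosphorylation are those that code for the subunits of respiratory complexes I to IV and of the ATP synthase, complex V. They were taken by symbol from the GENCODE M21 annotation of the mouse genome. Protein-coding genes beginning with Ndufa, Ndufb, Ndufc, Ndufs, Ndufv, Uqcr, Cox4, Cox5, Cox6, Cox7, Cox8 or Atp5 were included, along with Sdha, Sdhb, Sdhc and Sdhd. Pseudogenes and the Ndufaf assembly factors were left out. The rule found 86 genes among the 52714 in the data: 36 of complex I, 4 of complex II, 8 of complex III, 20 of complex IV and 18 of complex V. Of these, 79 were abundant enough to be tested. The data were estimated read counts of polyadenylated RNA from epithelial cells of the jejunum, in 15 libraries of CC027/GeniUnc mice, a Collaborative Cross strain.

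All 5 groups held 3 libraries and all mice were dosed into the stomach weekly. PBS controls received PBS alone and no challenge. The other mice received 2 mg of crude peanut extract weekly for 3 weeks and 5 mg in week 4. Sensitized mice without challenge were the second control, and 3 further groups, sensitized alike, were given 12 mg of peanut and killed 30, 60 or 120 min later. All cells were released from 4 cm of jejunum, starting 6 cm below the pylorus, by 75 min in a buffer with DTT (0.5 mM) and EDTA (2 mM). Titles carry a different number for every library, so the libraries were taken as separate mice. The p-values set differences between groups against the spread of libraries within groups. Mice challenged without sensitization and mice given a sham gavage are not analysed here, and the effects of handling, of gavage and of the elapsed time cannot be told apart from that of peanut. In bulk RNA, fewer cells of a type and less RNA per cell cannot be told apart either.

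Oxidative phosphorylation passes electrons from NADH through complex I, and from succinate through complex II, to ubiquinone, then through complex III and cytochrome c to complex IV, where oxygen is reduced. Complexes I, III and IV pump protons out of the mitochondrial matrix, and complex V makes ATP from the returning flow. Their subunits come from both genomes: the core membrane subunits of complexes I, III, IV and V are encoded in mitochondrial DNA, and all others, with every subunit of complex II, in the nucleus. Absorptive enterocytes, the most common cells of the jejunal epithelium, are rich in mitochondria.

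The libraries held between 15661513 and 22691349 estimated counts in total. The summed level of 6 epithelial markers was between 9556 and 13080 CPM (counts per 1000000 counts, scaled by TMM) in all libraries. Stromal and endothelial markers summed to 158 CPM in 30 min replicate 1 and to between 3.14 and 11.8 CPM in the other 14 libraries, and T cell and intraepithelial lymphocyte markers to between 27.7 and 293 CPM. Mitochondrially encoded genes took 33.6% of the counts in 60 min replicate 3 and from 13.9% to 26.9% elsewhere.

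Several of these genes carry short promoter motifs of the factors known to regulate respiratory chain genes: NRF1, the ETS family factor GABPA and YY1. Windows of 60 bases upstream of the start site are shown for 5 of them, chosen because the gene is described below or, for Ndufa7, as an example of the YY1 core. Motif matches are in capitals. The sequences are from RefSeq, build GRCm38.p6, and run 5′ to 3′ on the gene's strand. The windows lie at chr5:115349066-115349125 (minus strand) for Cox6a1, chr13:74350286-74350345 (minus strand) for Sdha, chr9:50603881-50603940 (minus strand) for Sdhd, chr10:80406856-80406915 (minus strand) for Uqcr11 and chr17:33824446-33824505 (plus strand) for Ndufa7.
Cox6a1: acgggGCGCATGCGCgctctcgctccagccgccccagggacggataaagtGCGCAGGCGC
Sdha: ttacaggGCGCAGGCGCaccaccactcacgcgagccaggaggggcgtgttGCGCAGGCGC
Sdhd: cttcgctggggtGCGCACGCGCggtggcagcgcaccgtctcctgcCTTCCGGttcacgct
Uqcr11: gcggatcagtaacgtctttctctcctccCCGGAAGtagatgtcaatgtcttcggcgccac
Ndufa7: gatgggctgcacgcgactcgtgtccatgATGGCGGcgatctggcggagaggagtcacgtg
Cox6a1 and Sdha each hold the NRF1 core in 2 places, Sdhd holds an NRF1 core and an ETS core, Uqcr11 an ETS core and Ndufa7 a YY1 core.

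RefSeq promoters, from 250 bases before to 50 after the start site, were matched for 69 of the 86 genes. Both strands were searched. The NRF1 core, shown in capitals in the Cox6a1 and Sdha windows, was in 16 of the 69 (23.2%) and in 4.78% of all 27025 promoters of the same length. The ETS core, CCGGAAG, was in 15 (21.7%) and in 9.12% of all promoters. The YY1 core, ATGGCGG, was in 9 (13%) and in 4.19% of all promoters. At least 1 of the 3 was in 34 promoters (49.3%), against 16% of all, and matches of different motifs overlapped in 0 of them. The promoters of these genes had a median GC content of 57.3%, against 52.7% for all. Among promoters of like GC content the shares were 4.95%, 11.7% and 4.76%, so the difference was also present there. These matches describe the sequence and are not measured binding sites.

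Per unit of length, the most abundant of these genes was Atp5b, the catalytic β subunit of ATP synthase, with a median of 2323 TPM (transcripts per 1000000 transcripts) over 15 libraries. A short processed transcript of 343 bases, Atp5b-207, held 59.8% of that TPM in the median library, and the protein-coding transcripts of Atp5b held a median of 878.6 TPM. Next came 3 subunits of cytochrome c oxidase, Cox6a1 (936 TPM), Cox8a (717 TPM) and Cox4i1 (695 TPM), and Atp5g3 (675 TPM), which codes for the c subunit of the ATP synthase rotor ring. When only protein-coding transcripts were summed, Cox6a1 (934 TPM) stood above Atp5b. The ranges of these genes over the 15 libraries overlapped, from 274 to 1140 TPM for Cox6a1 and from 212 to 934 TPM for Cox8a, so their order is that of the medians only.

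Complex I genes were the least abundant as a group. Their 36 tested genes had a median level of 83.1 TPM, and the highest of them, the accessory subunit Ndufa6, had 167 TPM and rank 33 of all. Complex II genes had a median of 164 TPM, complex III 268 TPM, complex IV 351 TPM and complex V 321 TPM. Within complex II the levels were close: Sdhd, a membrane anchor, was the highest at 222 TPM, and Sdhc, the other anchor, the lowest at 141.5 TPM. In complex III the levels ran from 192 TPM for Uqcrfs1, the Rieske iron-sulfur protein, to 375 TPM for Uqcrh, the hinge protein. The lowest tested genes of all were Cox6b2 (1.26 TPM), Atp5s (5.68 TPM), Atp5g2 (13.2 TPM), Ndufb4 (16.1 TPM) and Ndufa13 (27.9 TPM).

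**Figure D1:**
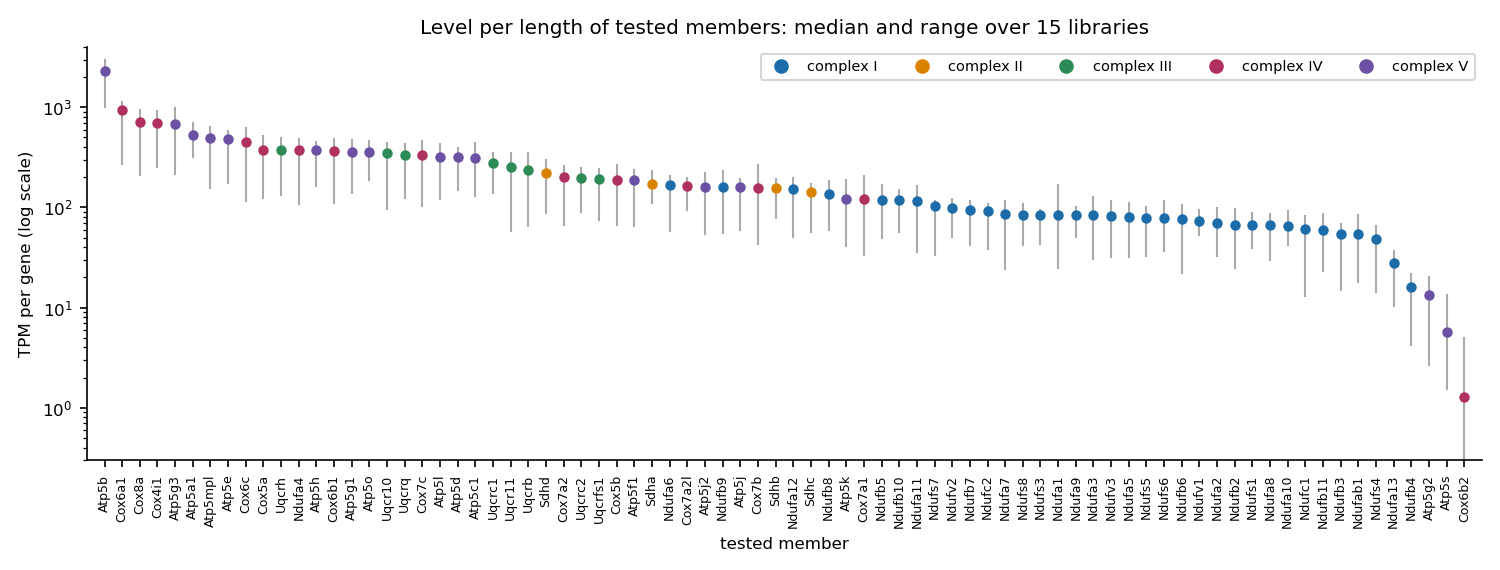
Level per length (TPM, log scale) of 78 of the 79 tested genes, with the median (point, coloured by complex) and the range (line) over 15 libraries. Atp5b is the highest at 2323 TPM, the medians of complex I genes lie at or below 167 TPM, and the line of Cox6b2 runs on to 0.

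Several subunits of complex IV exist in forms made by different genes, one of them broadly expressed and the other known from heart and skeletal muscle, testis or lung. In these cells the broadly expressed form held nearly all of the signal for Cox4i, Cox6a, Cox6b, Cox7b, Cox8 and Ndufa4. Cox6a2, the muscle form, had at most 0.111 TPM per 100 TPM of Cox6a1 in any library. Cox4i2, the lung and hypoxia form, had 2 counts in all 15 libraries together, Ndufa4l2 had 8, and Cox8b, Cox8c and Cox7b2 had 0 in every library, which for a single library allows up to 3 counts. Cox6b2, the testis form, had a median of 0.505 TPM per 100 TPM of Cox6b1, with between 0 and 19 counts per library.

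Cox7a1 was the exception. It lies at chr7:30184144-30186078, plus strand, of mm10. Its product is known as the heart and skeletal muscle form of subunit VIIa, and its TPM was 62.5 per 100 TPM of Cox7a2, the broadly expressed form, in the median library. The ratio ran from 49.2 in 120 min replicate 2 to 80.6 in sensitized replicate 1. Its transcript is short, with an effective length of 113 bases, so the counts behind it were lower than the TPM alone would show: 14.3, 14.6 and 19.5 CPM in the PBS mice, against 87.1, 78.2 and 86.9 CPM for Cox7a2. No 31-base stretch of its transcripts was shared with another gene. Stromal and endothelial markers summed to 5.80 CPM in sensitized replicate 1, and the ratio was 58.5 in 30 min replicate 1, where they summed to 158 CPM. Which cells the Cox7a1 signal came from was not tested. Cox7a2l, a paralog known from the assembly of respiratory supercomplexes, had 84.6 TPM per 100 TPM of Cox7a2 and reached 142 per 100 in 60 min replicate 3.

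The c subunit of ATP synthase is made from 3 genes with the same mature protein. Per 100 TPM of Atp5g3, Atp5g1 had 55.6 TPM and Atp5g2 had 2.11 TPM in the median library. Atp5g2 cannot be read alone: 87.7% of its 31-base stretches occur in other genes, and the pseudogene Gm10175 on chromosome 7 was given 41092 counts in total against 2034 for Atp5g2. Summed, the pair had mean levels of 155 CPM in the PBS mice, 149.5 CPM in the sensitized controls, 160.2 CPM at 30 min, 137 CPM at 60 min and 165 CPM at 120 min. Ndufb4 shares 38.3% of its stretches and its pseudogene Ndufb4c took 4490 counts against its own 3820. A second gene ID named Atp5o, 94% of whose stretches are also in other genes, received 0 counts, against 73108 for Atp5o. Single values of these genes are uncertain for that reason.

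The summed share of these genes was similar in most libraries. It took 1.57%, 1.42% and 1.5% of nuclear counts in the PBS mice, 1.55%, 1.55% and 1.44% in the sensitized controls, and 1.60%, 1.38% and 1.46% at 30 min. At 60 min the 3 libraries had 1.57%, 1.28% and 1.055%, and at 120 min 1.63%, 1.47% and 1.59%. Replicates 2 and 3 at 60 min were the lowest of all 15 libraries, and 60 min replicate 1 was among the higher ones. Group means were 1.5% ± 0.0749, 1.51% ± 0.0656, 1.48% ± 0.115, 1.30% ± 0.256 and 1.56% ± 0.0825 (SD, n = 3 each).

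The 60 min libraries differed most in complex IV. Its genes took 0.280%, 0.198% and 0.132% of nuclear counts at 60 min, and between 0.266% and 0.278% in the sensitized controls. Complex II stayed closest to the controls, with 0.105% in 60 min replicate 3 against 0.109% to 0.123%. As a share of the counts of the 5 complexes, complex IV made up 12.5% in that library and 15.5% to 18.7% in the other 14. The complexes also differ in transcript length. Of the 14 tested genes of complex IV, 10 had effective lengths under 400 bases and 0 over 900 bases. Of the 4 of complex II, 0 were under 400 bases and 3 over 900. The part of length in the difference between complexes was not tested.

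**Figure D2:**
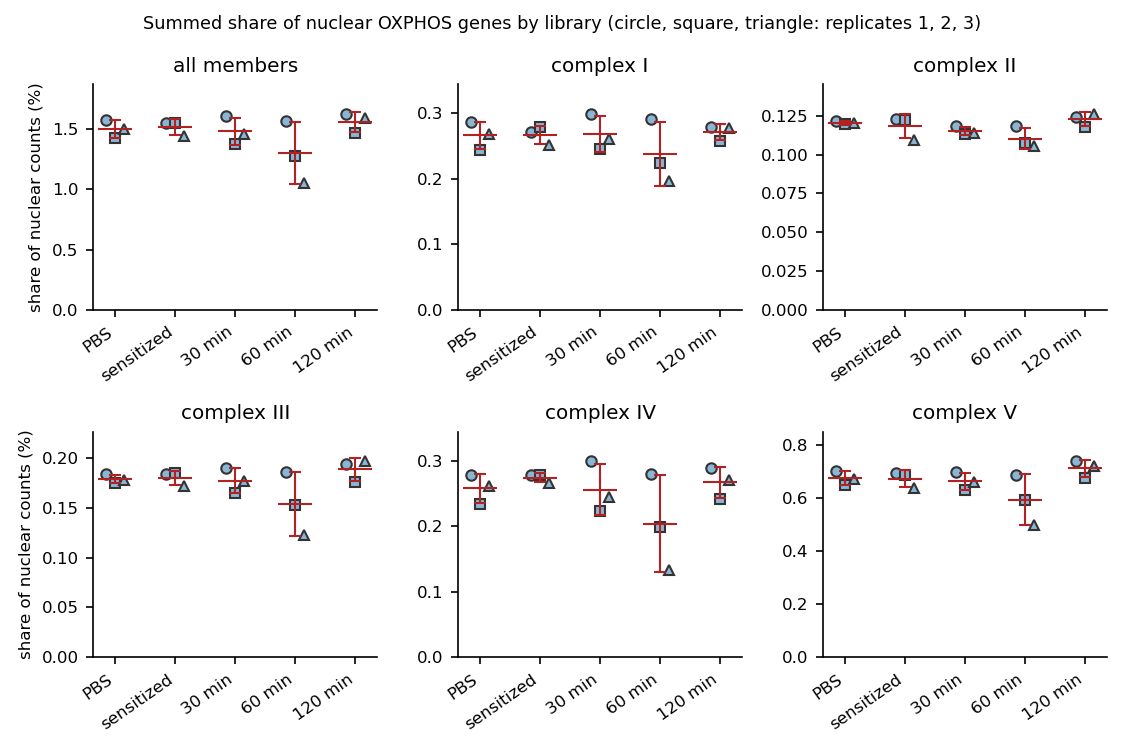
Summed share of nuclear counts (%) of all genes of the group and of each complex, for 3 libraries per group, with mean and SD in red; vertical axes start at 0. For all genes, 60 min replicate 3 (triangle) is lowest at 1.055%, and 60 min replicate 1 (circle, 1.57%) lies with the controls.

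Sensitization alone was compared with PBS to ask whether the feeding regimen shifts these genes before any challenge. Of 79 tested genes, 0 passed at an adjusted p under 0.05 (edgeR's quasi-likelihood test with Benjamini-Hochberg adjustment over all 14903 genes), where 0% of all genes passed, and 1 had an unadjusted p under 0.05 (1.4% of all genes). DESeq2 and limma-voom also called 0. The median log2 fold change was 0.08, against 0.01 over all genes, and 67 of 79 were higher in the sensitized mice (51.5% of all genes were). It was 0.15 without PBS replicate 1, 0.04 without PBS replicate 2 and 0.03 with an offset for effective length. In 6 genes the sensitized libraries all lay above the PBS libraries, as in 3.89% of all genes, and in 1 below them (4.07%).

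Ndufa6, an accessory subunit of complex I, had the smallest p of that comparison. It stood at 54.6, 45.2 and 50.9 CPM in the PBS mice and at 66.9, 64.8 and 71.2 CPM in the sensitized controls. The groups did not overlap, with a log2 fold change of 0.43 ± 0.18 (SE) and an adjusted p of 1. The next smallest p-values belonged to Cox4i1 (0.21 ± 0.15), Uqcrq (0.23 ± 0.17) and Cox7a2l (0.12 ± 0.10), none of which passed.

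At 30 min after challenge, 0 of 79 genes passed against the sensitized controls by edgeR (0% of all genes), 0 had an unadjusted p under 0.05 (5.07% of all genes), and DESeq2 and limma-voom called 0. The median log2 fold change was −0.10, and 70 of 79 genes were lower (48.7% of all genes). The median was −0.19 without 30 min replicate 1 and −0.05 without 30 min replicate 2. In 10 genes all challenged libraries lay below all controls, as in 7.84% of all genes, and in 0 above them (6.5%). Sdhb, the iron-sulfur subunit of succinate dehydrogenase, had the smallest p. It had 196, 192 and 196 CPM in the sensitized controls and 165, 164 and 189 CPM at 30 min, a log2 fold change of −0.17 ± 0.10 (SE) with an adjusted p of 0.981. Atp5c1, Ndufa12 and Ndufa6 followed, at −0.17 ± 0.12, −0.26 ± 0.19 and −0.25 ± 0.18. Replicate 1 of this group, where stromal markers were high, had 31 of the 79 genes below the sensitized mean, against 74 and 68 in replicates 2 and 3, and 17 of the 79 were highest of all 15 libraries there. Of 256 other nuclear protein-coding genes with effective lengths under 400 bases, 60, 175 and 166 lay below that mean in replicates 1, 2 and 3. Over 900 bases it was 5843, 5533 and 5566 of 11558 genes. The part of the stromal cells in these counts was not tested.

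The 60 min group showed the largest distance from the sensitized controls, and it was uneven between its libraries. Again 0 of 79 genes passed by edgeR (0.00671% of all genes did), and DESeq2 and limma-voom called 0. An unadjusted p under 0.05 was reached by 35 genes (44.3%, against 12.6% of all genes). The median log2 fold change was −0.36, against −0.02 over all genes, and 75 of 79 genes were lower (52.4% of all genes). In 27 genes (34.2%) every 60 min library lay below every control, as in 9.2% of all genes, and in 0 above (9.36%).

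By complex, the median log2 fold change at 60 min against the sensitized controls was −0.32 for complex I, −0.25 for complex II, −0.42 for complex III, −0.52 for complex IV and −0.34 for complex V. Their median effective lengths were 476, 1025, 322, 324 and 554 bases in the same order, and the part of length was not tested. All 14 tested genes of complex IV and all 8 of complex III had a lower mean. Complex I had 2 exceptions of 36, Ndufv1 (0.06), the NADH-binding subunit, and the accessory subunit Ndufa9 (0.02). Complex II had 1, Sdha (0.02), the flavoprotein that oxidizes succinate, and complex V had 1, Atp5s (0.22), a coupling factor.

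The 4 genes with the smallest p at 60 min were 3 subunits of cytochrome c oxidase and Ndufa6. Cox6a1 (mm10, chr5:115345642-115348981, minus strand) had 360, 345.5 and 388 CPM in the sensitized controls and 304, 252 and 156.5 CPM at 60 min. All challenged libraries were below all controls, but replicate 3 was far below replicate 1. The log2 fold change was −0.62 ± 0.18 (SE), with an adjusted p of 0.234.

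Cox8a, the smallest subunit of the oxidase, had 243, 241 and 276 CPM in the controls and 220, 160 and 109 CPM at 60 min (−0.63 ± 0.19, adjusted p 0.245 by edgeR). Cox7a1 had 21.7, 18.3 and 18.5 CPM in the controls and 13.8, 10.9 and 6.92 CPM at 60 min (−0.89 ± 0.27, adjusted p 0.245). Ndufa6 had 66.9, 64.8 and 71.2 CPM in the controls and 57.6, 43.8 and 31.7 CPM at 60 min (−0.61 ± 0.18, adjusted p 0.245). In all 3 the 60 min libraries did not overlap the sensitized controls. The PBS mice had 253, 232 and 219 CPM of Cox8a and 54.6, 45.2 and 50.9 CPM of Ndufa6, both overlapping 60 min. Cox7a1 had 14.3, 14.6 and 19.5 CPM in the PBS mice, all above 60 min. The order of the 60 min libraries was the same in all 3 as for Cox6a1.

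This order held for most of the group. Against the mean of the sensitized controls, the median log2 difference of the 79 genes was −0.03 in 60 min replicate 1, −0.42 in replicate 2 and −0.70 in replicate 3, where 48, 78 and 76 genes were lower. In replicate 3, 210 of 256 other nuclear protein-coding genes with effective lengths under 400 bases were lower too. So were 864 of 1083 such genes of 400 to 900 bases and 5548 of 11558 over 900 bases. The lowest of all 15 libraries was 60 min replicate 3 for 62 of the 79 genes: 26 of 36 in complex I, 3 of 4 in complex II, 7 of 8 in complex III, 12 of 14 in complex IV and 14 of 17 in complex V. How many of all genes were lowest there is not given here, so these counts are a description only. Without 60 min replicate 1 the median became −0.61 and 17 genes passed (21.5%, against 2.57% of all genes). They included Cox6a1 (−0.82, adjusted p 0.0365), Cox8a (−0.89, adjusted p 0.0365) and Ndufa6 (−0.82, adjusted p 0.0384). The median without replicate 3 was −0.20.

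**Figure D3:**
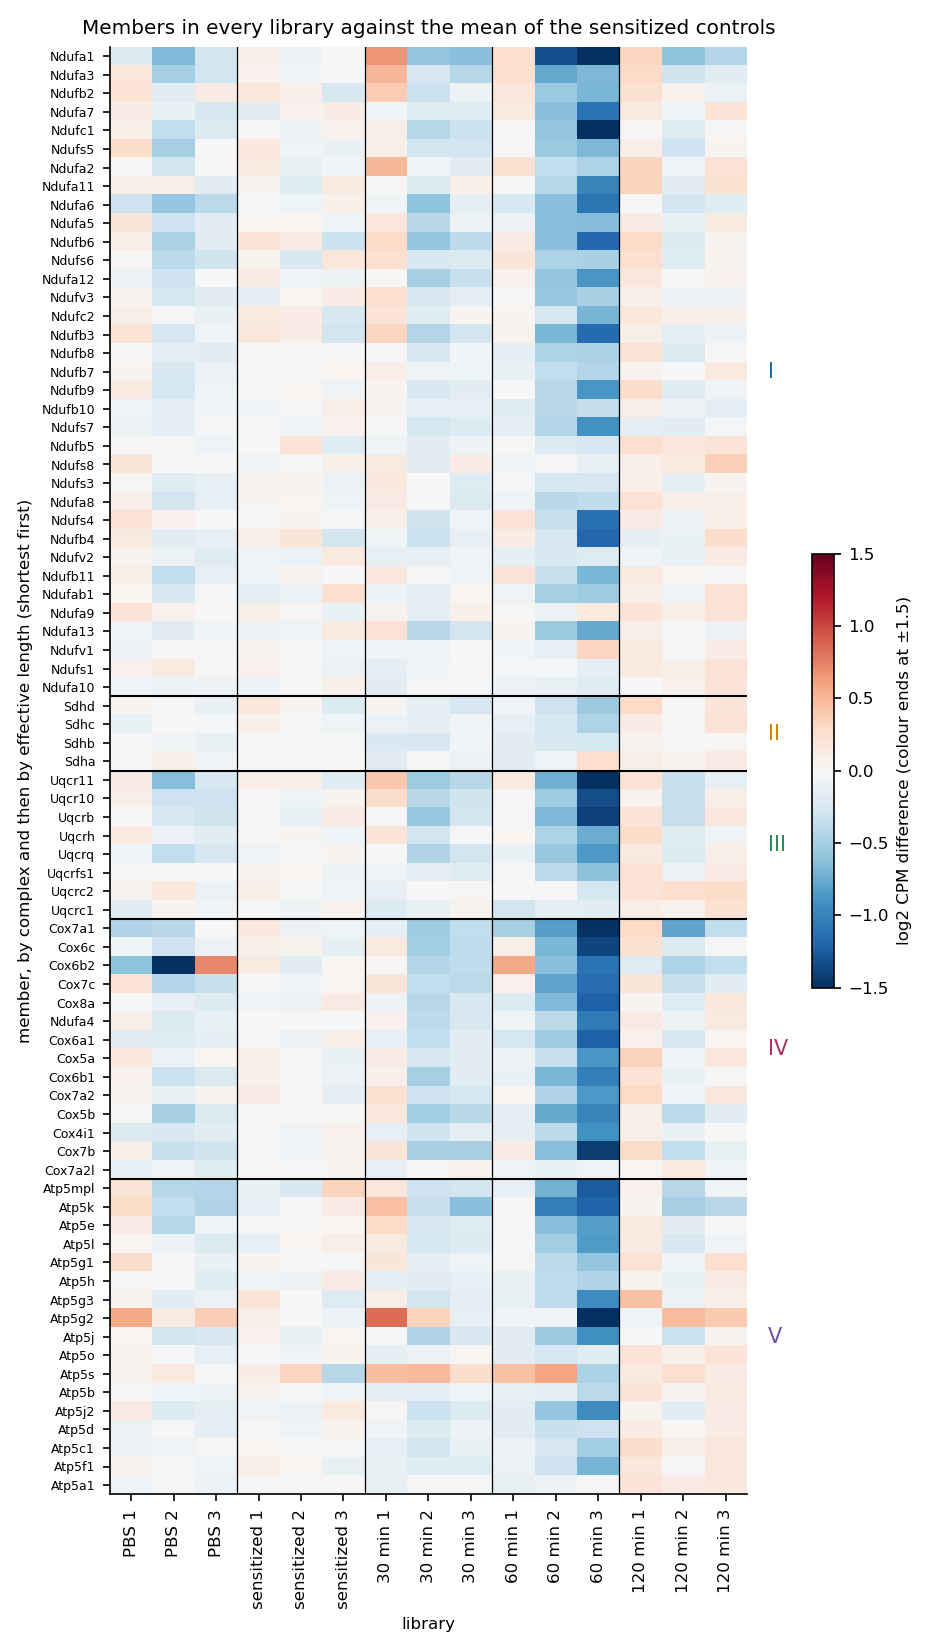
Log2 CPM difference of 78 of the 79 tested genes from the mean of the sensitized controls, in 15 libraries, ordered by complex (I to V) and by effective length within a complex, shortest at the top. Replicates 2 and 3 at 60 min are lower for most genes, most of all for the short ones, and 60 min replicate 1 has a median of −0.03.

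In 60 min replicate 3 the difference followed the length of the transcripts. Effective length is the number of positions a sequenced fragment can start from, and 37 of the 79 genes had under 400 bases. In that library their median log2 difference from the sensitized mean was −0.99, against −0.52 for the 27 genes of 400 to 900 bases and −0.18 for the 15 over 900 bases. Other nuclear protein-coding genes of the same lengths had −0.71 (256 genes), −0.52 (1083 genes) and 0.02 (11558 genes). In 60 min replicate 2 the 3 classes stood at −0.58, −0.34 and −0.12 for these genes and at −0.40, −0.26 and 0.03 for the others. In 60 min replicate 1 the medians were 0.02, −0.07 and −0.05. A lower level of the short genes was not particular to 60 min: the genes under 400 bases stood at −0.33 in 30 min replicate 2, −0.31 in PBS replicate 2 and −0.18 in 120 min replicate 2, and other genes of that length at −0.25, −0.19 and −0.21. In 30 min replicate 1 the sign was the opposite, with 0.14 and 0.27.

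Short transcripts of other genes were lower too in those libraries, and the part of transcript length in the 60 min difference was not tested. With an offset for the effective length of each gene in each library, the median at 60 min was −0.31. That offset only accounts for a gene's effective length differing between libraries. It could not measure a difference between short and long genes within a library, so the value does not size the part of length. Replicate 3 at 60 min also had the highest mitochondrially encoded share, 33.6% of counts. Sensitized replicate 3 and PBS replicate 1 came next with 26.9% and 25.7%, and these genes took 1.44% and 1.57% of nuclear counts there. Epithelial markers summed to 9556 to 10120 CPM at 60 min and 11190 to 11450 CPM in the sensitized controls, and Paneth cell markers to 6668 to 7778 CPM against 3912 to 4710 CPM. Their part in the result was not tested.

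**Figure D4:**
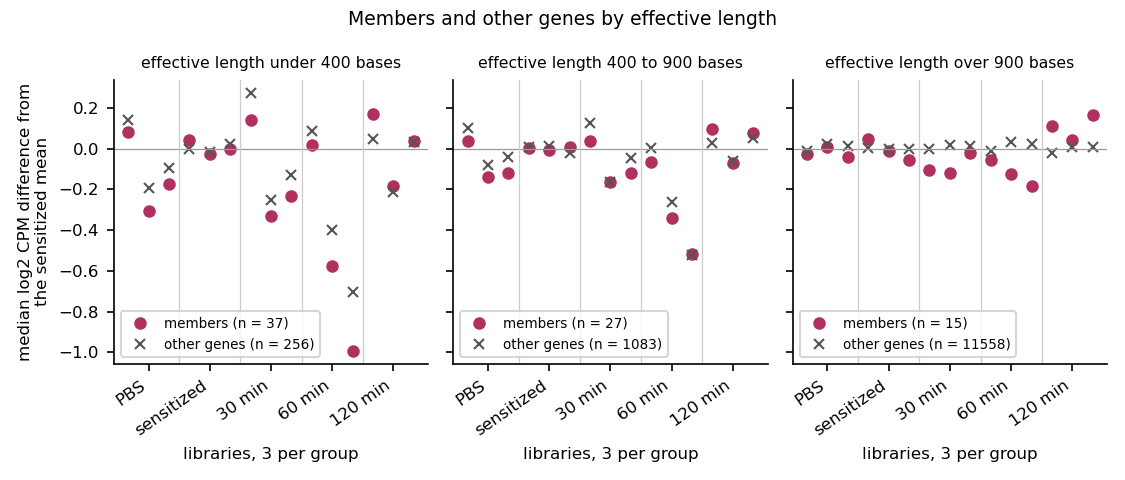
Median log2 CPM difference from the sensitized mean in each of 15 libraries, for the genes of oxidative phosphorylation (circles) and other nuclear protein-coding genes (crosses) in 3 classes of effective length. In 60 min replicate 3 both sets are lowest under 400 bases (−0.99 and −0.71), and over 900 bases the medians are −0.18 and 0.02.

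The role of a subunit and its length go together in these complexes. The 7 nuclear core subunits of complex I, among them Ndufv1, Ndufs1 and Ndufs8, had a median log2 fold change of −0.07 at 60 min against the sensitized controls, and the 29 accessory subunits −0.35. The sets overlapped: the core subunits ran from −0.46 (Ndufs7) to 0.06 (Ndufv1) and the accessory ones from −0.64 (Ndufa1) to 0.02 (Ndufa9). Median effective lengths of the 2 sets were 783 and 392 bases. In complex III the 2 core proteins and the Rieske protein had −0.20 and the 5 small subunits −0.51, with lengths of 1444 and 240 bases. In ATP synthase the 5 subunits of the F1 head and stalk had −0.27 and the other 12 genes −0.41, with lengths of 808 and 424 bases. These sets were made from known subunit roles after the values had been seen, so they are descriptions without a test.

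Succinate dehydrogenase shows the range within 1 complex. Sdha had 419, 410 and 419 CPM in the sensitized controls and 369, 402 and 493 CPM at 60 min, and the value of replicate 3 was its highest in any library. Sdhb had 175, 165 and 161.5 CPM at 60 min, all below its controls (−0.22 ± 0.10, adjusted p 0.365 by edgeR). Sdhc had 169, 158 and 153 CPM in the controls and 146.5, 133 and 116 CPM at 60 min (−0.28 ± 0.11, adjusted p 0.313). Sdhd had 218, 200 and 169 CPM in the controls and 187, 156.5 and 133 CPM at 60 min (−0.30 ± 0.14, adjusted p 0.39), and its groups overlapped.

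At 120 min the genes were near the sensitized controls again. Against those controls 0 of 79 passed by edgeR (1.25% of all genes did), 1 had an unadjusted p under 0.05 (17.7% of all genes), and DESeq2 and limma-voom called 0. The median log2 fold change was 0.04 and 53 genes were higher (49.3% of all genes). Its sign was not stable: the median was −0.02 with upper-quartile scaling, where that of all genes was −0.06, and −0.02 without 120 min replicate 1. It was 0.03 without sensitized replicate 1 or 120 min replicate 3, and 0.09 without 120 min replicate 2. In 11 genes every 120 min library lay above every control, as in 13.3% of all genes, and in 1 below (13.3% of all genes).

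Uqcrc2, a core protein of complex III, had the smallest p, with 323, 305 and 292.5 CPM in the sensitized controls and 354, 364 and 371 CPM at 120 min (0.24 ± 0.11, adjusted p 0.264 by edgeR). Ndufs8 (0.21 ± 0.11), Ndufb5 (0.19 ± 0.11) and Ndufa9 (0.17 ± 0.10) came next. Atp5a1 and Atp5b, the α and β subunits that form the head of ATP synthase, were both higher in every 120 min library than in every sensitized or PBS library. Atp5b had 1802, 1755 and 1713 CPM in the PBS mice, 1861, 1790 and 1753 CPM in the sensitized controls and 2059, 1862 and 1973 CPM at 120 min (0.13 ± 0.12 against the sensitized controls). Against PBS, 0 of 79 passed at 120 min by edgeR (1.19% of all genes), 0 had an unadjusted p under 0.05 (18.8% of all genes), limma-voom called 0 and DESeq2 called 1 (6.3% of all genes). That gene was Atp5a1, with 1391, 1468 and 1373 CPM in the PBS mice and 1670, 1578 and 1631 CPM at 120 min (DESeq2: 0.21, adjusted p 0.0453; edgeR: 0.20 ± 0.10, adjusted p 0.302). In 16 genes every 120 min library was above every PBS library, as in 12.3% of all genes, and in 0 below (14%). The median log2 fold change was 0.12, and 72 of 79 had a higher mean (50.5% of all genes). It was 0.05 without 120 min replicate 1 and 0.05 with upper-quartile scaling, where that of all genes was −0.07. The smallest p after Ndufb5 (0.22 ± 0.11) and Atp5a1 belonged to Atp5o (0.19 ± 0.10) and Atp5c1 (0.21 ± 0.12).

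**Figure D5:**
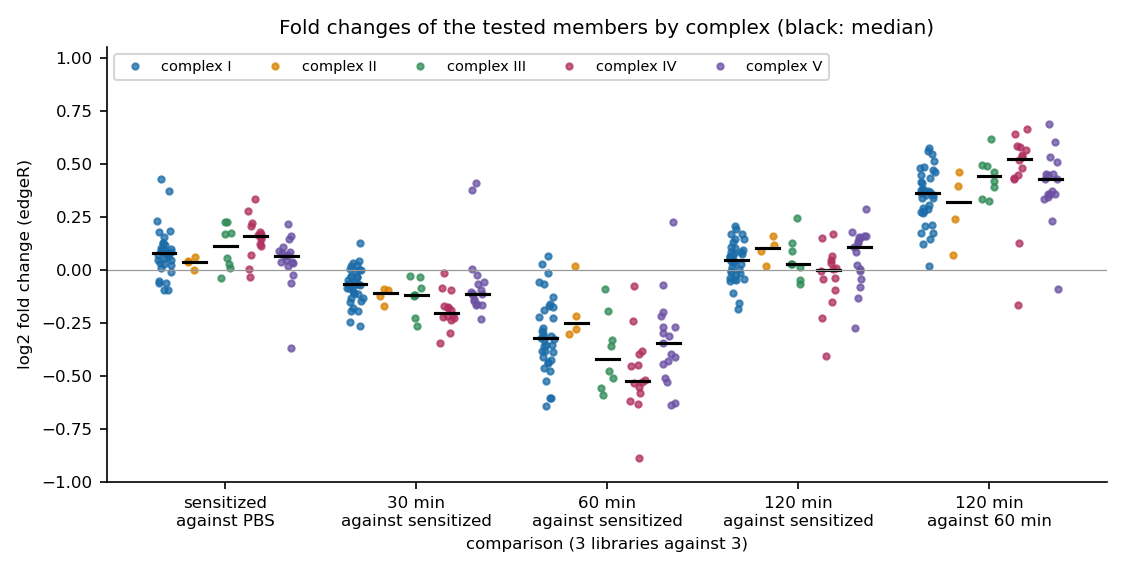
Log2 fold change (edgeR) of each tested gene by complex (colours) in 5 comparisons of 3 libraries against 3, with black bars at the median of each complex. At 60 min against the sensitized controls the medians run from −0.25 (complex II) to −0.52 (complex IV), and at 120 min against 60 min all are above 0; no gene passed the test in any of these comparisons.

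The times after challenge were also compared with each other. From 60 to 120 min, 77 of 79 genes had a higher mean (49.6% of all genes), and the median log2 fold change was 0.39. By edgeR 0 passed (1.12% of all genes did), and 45 had an unadjusted p under 0.05 (57%, against 19.8% of all genes). DESeq2 called 18 of 78, all higher at 120 min (23.1%, against 6.77% of all genes), and limma-voom 0. In 28 genes (35.4%) every 120 min library was above every 60 min library, as in 10.3% of all genes, and in 0 below (9.76%).

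Atp5c1 (mm10, chr2:10056016-10080510, minus strand), the γ subunit of the rotor stalk, had the smallest p of any gene of the group. It had 293, 258.5 and 216 CPM at 60 min and 370, 331 and 347 CPM at 120 min. Its groups were apart, with a log2 fold change of 0.45 ± 0.12 (SE) and an adjusted p of 0.0701 by edgeR and 0.00511 by DESeq2. Atp5o, the stalk subunit that confers oligomycin sensitivity, had 237, 220 and 233 CPM at 60 min and 302, 280 and 303 CPM at 120 min (0.36 ± 0.10, adjusted p 0.0856 by edgeR and 0.0043 by DESeq2).

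Atp5d, the δ subunit of the stalk, had 264, 234 and 239 CPM at 60 min and 321, 302 and 320 CPM at 120 min (0.36 ± 0.10, adjusted p 0.0876 by edgeR and 0.00357 by DESeq2). Sdhc had 172, 161 and 186 CPM at 120 min (0.39 ± 0.11, adjusted p 0.0802 by edgeR and 0.00862 by DESeq2). In Atp5o and Atp5d the 3 libraries of 60 min were close together, so in these 2 genes the distance from 120 min did not rest on 60 min replicate 3 alone. Both are named for a small p in this comparison, which favours genes with close libraries, so they do not speak for the group. For 62 of the 79 genes 60 min replicate 3 was the lowest of all 15 libraries. In Cox8a and Cox6a1, where replicate 3 was far from replicate 1, the log2 fold changes were 0.64 ± 0.19 and 0.58 ± 0.18, with adjusted p of 0.1 and 0.11 by edgeR. In 14 of the 79 genes (17.7%, against 2.5% of all genes) every 60 min library lay below the mean of the sensitized controls and every 120 min library above it. Without 60 min replicate 1, 42 genes passed (53.2%, against 7.44% of all genes) and the median was 0.61, and without 60 min replicate 3 it was 0.24. Epithelial markers summed to 12740 to 13080 CPM at 120 min, above all 60 min libraries. Paneth cell markers summed to 6668 to 7778 CPM at 60 min and 1811 to 3647 CPM at 120 min, and B and plasma cell markers to 191.4 to 226 CPM and 22.1 to 57.5 CPM. Neither overlapped between the times, and the part of these markers in the difference was not tested.

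From 30 to 120 min 72 of 79 genes had a higher mean (48.8% of all genes) and the median was 0.15. It was 0.06 without 30 min replicate 2, 0.08 without 120 min replicate 1 and 0.07 with upper-quartile scaling, where that of all genes was −0.09. By edgeR 0 passed (1.02% of all genes), 5 had an unadjusted p under 0.05 (17.7% of all genes), DESeq2 called 2 (Atp5a1 and Atp5c1; 2.56%, against 6.19% of all genes) and limma-voom 0. In 19 genes the 120 min libraries were all higher, as in 12.2% of all genes, and in 1 all lower (10.1%). Atp5c1 (0.35 ± 0.12), Ndufb5 (0.30 ± 0.11), Uqcrc2 (0.28 ± 0.11) and Ndufs1 (0.21 ± 0.09) had the smallest p. From 30 to 60 min 0 passed by edgeR (0% of all genes), 6 had an unadjusted p under 0.05 (4.5% of all genes), and DESeq2 and limma-voom called 0. The median was −0.28 (−0.48 without 60 min replicate 1, −0.11 without 60 min replicate 3 and −0.14 without 30 min replicate 1), 73 of 79 genes had a lower mean (53% of all genes), and in 4 the 60 min libraries were all lower, as in 3.76% of all genes, and in 0 all higher (3.2%). The smallest p belonged to Ndufb7 (−0.29 ± 0.11), Atp5g2 (−0.81 ± 0.33), Ndufb10 (−0.25 ± 0.10) and Cox6a1 (−0.40 ± 0.18). When the 3 times were tested jointly against the sensitized controls, 0 passed by edgeR (0.544% of all genes), 27 had an unadjusted p under 0.05 (17.6% of all genes), DESeq2 called 2 (Atp5c1 and Atp5d; 2.56%, against 6.56% of all genes) and limma-voom 0. Atp5c1, Cox8a, Cox6a1 and Sdhc had the smallest p of that test, with adjusted p from 0.153 to 0.195. These comparisons share libraries, so they do not support each other.

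The genes varied unequally among themselves. Over 15 libraries, the coefficient of variation of CPM was small for Cox7a2l (5.87%), Atp5a1 (6.79%), Ndufa10 (6.91%) and Ndufs1 (7.09%), all with effective lengths of 851 bases or more. The largest coefficients were those of Cox6b2 (52.3%), Ndufa1 (38.8%), Atp5k (30.0%), Atp5g2 (29.5%) and Uqcr11 (29.1%). Ndufa1, a membrane subunit of complex I with an effective length of 128 bases, had 19.0, 6.40 and 5.51 CPM at 60 min, and 25.6, 10.6 and 10.4 CPM at 30 min. Uqcr11, whose promoter window is shown above, had 55.6, 30.5 and 17.0 CPM at 60 min and 54.2, 53.3 and 44.4 CPM in the sensitized controls. Within groups the median coefficient of variation was 14.7% for the 79 genes and 12.9% for 6143 other nuclear genes with mean levels between 18.2 and 289 CPM, whose median level was lower (47.0 against 80.9 CPM). Genes with and without a motif in their promoters had similar medians at 60 min against the sensitized controls, −0.37 (34 genes) and −0.34 (33 genes).

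Other genes of the pathway were followed from lists made without regard to how they moved here, though earlier results of these data were known. Cyc1, the cytochrome c1 subunit of complex III that the symbol rule does not take, passed the test from 60 to 120 min. It had 242, 231 and 209 CPM at 60 min and 328, 284 and 329 CPM at 120 min, and rose by 0.46 ± 0.11 on the log2 scale (adjusted p 0.0481 by edgeR). Vdac2, a channel of the outer mitochondrial membrane, rose by 0.55 ± 0.13 (adjusted p 0.0488), from 264 ± 46.3 to 386 ± 19.9 CPM (SD, n = 3 each). Tmem126b, a complex I assembly factor, fell from 12.0 ± 2.84 CPM in the PBS mice to 6.37 ± 0.963 CPM at 120 min (−0.92 ± 0.21, adjusted p 0.0466 by edgeR). Cycs, cytochrome c itself, did not pass from 60 to 120 min (0.73 ± 0.18, adjusted p 0.058).

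These were the only calls among the pathway lists in the 8 pairwise comparisons: 1 of 15 genes of cytochrome c and coenzyme Q synthesis, 1 of 7 uncoupling and carrier genes and 1 of 16 assembly factors of complex I. Of all genes, 1.12% passed from 60 to 120 min and 1.19% at 120 min against PBS. Of 16 genes of the tricarboxylic acid cycle, which feeds electrons to the chain, 0 passed, and all 16 had a higher mean at 120 min than at 60 min (median 0.26, with 8 at an unadjusted p under 0.05) or in the sensitized controls (median 0.16). Of 78 mitochondrial ribosomal protein genes 0 passed and all 78 had a higher mean at 120 than at 60 min (median 0.26, with 20 at an unadjusted p under 0.05). The rise was not particular to mitochondrial genes. Of 80 tested cytosolic ribosomal protein genes 0 passed and 76 had a higher mean at 120 than at 60 min (median 0.21, with 10 at an unadjusted p under 0.05). Of all genes, 49.6% had a higher mean at 120 than at 60 min and 19.8% had an unadjusted p under 0.05.

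The 13 mitochondrially encoded protein genes, whose products join these subunits in the same complexes, had the opposite sign in some comparisons. Their median log2 fold change was 0.31 at 60 min against the sensitized controls, with 12 of 13 higher, and −0.76 from 60 to 120 min, with 13 of 13 lower. In both comparisons 0 passed by edgeR (0.00671% and 1.12% of all genes did), and 0 and 2 had an unadjusted p under 0.05 (12.6% and 19.8% of all genes). Opposite signs also stood at 120 min against the sensitized controls, with a median of −0.51 beside 0.04 for the nuclear genes. The same held at 60 min against 30 min (0.48 beside −0.28) and 120 min against 30 min (−0.27 beside 0.15). It held at 120 min against PBS too (−0.35 beside 0.12). In these 0 of 13 passed by edgeR (1.25%, 0%, 1.02% and 1.19% of all genes did). The sign was that of the nuclear genes at 30 min against the sensitized controls, where the median was −0.23, with 13 of 13 lower. So it was for the sensitized controls against PBS, with a median of 0.15 and 13 of 13 higher. The libraries were uneven: mitochondrially encoded genes took 14.2%, 18.4% and 33.6% of counts at 60 min, 18.4%, 17.3% and 26.9% in the sensitized controls and 13.9%, 16.7% and 15.8% at 120 min. At 60 min only replicate 3 stood above all sensitized controls, and replicate 1 was below all of them.

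Among 14 regulators of mitochondrial biogenesis 0 passed in any comparison. Nrf1, whose motif is in 16 of the promoters, came nearest: it had 21.4, 20.7 and 17.3 CPM in the sensitized controls, 26.7, 26.7 and 28.2 CPM at 60 min and 27.7, 25.4 and 29.1 CPM at 120 min. The challenged libraries of both times lay above the controls, with log2 fold changes of 0.46 ± 0.12 (adjusted p 0.208 by edgeR) and 0.47 ± 0.12 (adjusted p 0.0642). Gabpa had 0.10 ± 0.12 and 0.18 ± 0.12 at these times, and Tfam, the packaging factor of mitochondrial DNA, 0.27 ± 0.13 and 0.17 ± 0.13. The coactivators Ppargc1a and Ppargc1b had 0.11 ± 0.28 and −0.01 ± 0.24 at 120 min, and the nuclear receptor Esrra 0.43 ± 0.20 (adjusted p 0.285).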

How the data were processed

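RNA with poly(A) tails from jejunal epithelial cells was read in pairs of 151 bases. The submitters' processing notes name cutadapt 1.18 for trimming, Salmon 1.2.1 for quantification and mm10. Which release of the transcript set was used is not stated in these sources. The tables the authors deposited list 139058 transcripts. Per the file headers, each has an estimated count of reads, which need not be whole, and the authors' TPM. The headers also name the transcript's length and effective length in bases, which are other values in the deposited tables and served here as descriptions and as an offset. Transcripts were summed to genes with GENCODE M21: 137334 IDs matched with their version, and 0 of the 394 transcripts of the genes described were lost. Between 1.08% and 1.73% of counts had no gene and were left out. Ndufa4 and Ndufa4l2 were counted with complex IV.

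Rounded gene sums were tested with edgeR 4.0.16 in R 4.3.3: TMM scaling, filterByExpr, and a robust quasi-likelihood test of group means over all 15 libraries, with 10 residual degrees of freedom. The threshold was a Benjamini-Hochberg adjusted p under 0.05 over 14903 genes. DESeq2 1.42.0, limma-voom (limma 3.58.1), other scalings and filters, an offset for effective length, fits of only the compared groups, and leaving out each library were alternatives. TPM was used to compare genes and was not tested. The edgeR script was tested on simulated counts first. Tables were read in R with the package data.table (version 1.17.8). Joins and plots used pandas 2.3.3, numpy 2.4.6 and matplotlib 3.10.9 under Python 3.11.15.

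The genes, the pathway and marker lists and the tests were chosen with earlier results of these data known. The genes named are those past the threshold or, where none passed, the 4 of smallest p in each comparison, the isoform pairs, the most and least abundant of each complex, the 5 highest and lowest by TPM, the 5 most and least variable, complex II, and a fixed set of regulators. Others, named to show a role or a copy, were chosen after their values were seen. The values of 1 tested gene are not reported here, and it is left out of the plots that name genes.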

Additional observations from a re-analysis of the deposited data

Results flagged for a closer look

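Of the 14 genes in which every 60 min library lay below the mean of the sensitized controls and every 120 min library above it, 9 are among the genes named by rule. Their log2 fold changes from 60 to 120 min were 0.45 for Atp5c1, 0.39 for Sdhc, 0.37 for Ndufb7, 0.36 for Atp5o, 0.36 for Atp5d, 0.35 for Ndufb5, 0.28 for Ndufs8, 0.23 for Atp5a1 and 0.20 for Ndufs1. They stand here because the same contrast with the sensitized controls had opposite signs at the 2 times. These genes were chosen because their libraries of the 2 times lie on opposite sides of that mean, so the fold changes are a description, and the difference was not tested apart from that choice. With 3 libraries per group, single libraries were not tested as outliers.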

How the results depend on the processing

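The counts of genes passing depended on the tool and on 60 min replicate 1. DESeq2 called 18 from 60 to 120 min, 2 from 30 to 120 min, 1 at 120 min against PBS and 2 in the joint test, where edgeR called 0. Without a filter on low counts edgeR called 1 of 82 from 60 to 120 min (1.06% of all genes). Leaving out each library in turn gave from 0 to 17 genes at 60 min against the sensitized controls, from 0 to 42 from 60 to 120 min and from 0 to 4 in the joint test, each highest without 60 min replicate 1 (4 of 79, or 5.06%, in the joint test, against 2.41% of all genes). The median log2 fold change then ran from −0.61 to −0.20 at 60 min against the sensitized controls, from −0.48 to −0.11 against 30 min and from 0.24 to 0.61 from 60 to 120 min. The smaller size in each came without 60 min replicate 3 and the larger without 60 min replicate 1, and the cause was not tested. The median of 120 min against the sensitized controls changed sign, to −0.02 with upper-quartile scaling and to −0.02 without 120 min replicate 1, and no other median did under any alternative run.

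As a share of all counts, mitochondrial ones included, these genes took 1.197% in PBS, 1.2% in sensitized, 1.196% in 30 min, 1.028% in 60 min and 1.32% in 120 min mice. As a share of the authors' nuclear TPM they took 3.065%, 3.196%, 2.872%, 2.53% and 3.536%. Without Atp5b the shares of nuclear counts were 1.276%, 1.293%, 1.264%, 1.103% and 1.328%. The numerator or denominator differs by construction in each, and the 60 min group was lowest in each. No paired analysis was possible because the titles give every library a different number, and the replicate numbers used here only name libraries.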
